A study of Homo sapiens with 6 samples.

Results

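The replication-dependent histone genes encode the core histones H2A, H2B, H3 and H4 and the linker histone H1 that package newly copied DNA. Members were the protein-coding genes whose RefSeq symbol is H2AC, H2BC, H3C or H4C followed by a number, or H1-1 to H1-6, which gave 69 of 20037 protein-coding genes. They comprised 6 H1, 17 H2A, 18 H2B, 13 H3 and 15 H4 genes. By position 55 lay on 6p22 of chromosome 6, 11 on 1q21 of chromosome 1 and 3 elsewhere. A peak was assigned to a member when it lay within 1 kb of the gene. Peaks of the 4 lists that shared at least 1 bp were merged, and 64 of the 72272 merged regions lay within 1 kb of a member.

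The study mapped the corepressor TLE3 by ChIP-seq in MDA-MB-453, an established human breast cancer cell line, to ask whether its binding depends on the forkhead factor FOXA1. Cells with transiently silenced FOXA1 (siFOXA1, 2 libraries) were set against siNS cells (2 libraries), and the titles name the libraries within a group as biological replicates. All cells belonged to 1 line, were fixed with an additional cross-linker before formaldehyde and were precipitated with the same TLE3 antibody. The lists gave positions on hg38 and a score per peak but no reads, so sequencing depth was unknown. They hold no measure of FOXA1 or of histone mRNA. The siFOXA1 lists held 12249 and 13754 peaks on chromosomes 1 to 22 and X, against 45105 and 46586 in the siNS lists. In bulk chromatin, fewer cells with TLE3 at a site and less TLE3 at the site in each cell cannot be told apart.

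Histone genes of this kind are transcribed during S phase, and their mRNAs end in a stem-loop that the protein SLBP binds, in place of a poly(A) tail. Their short, intronless genes are grouped in clusters and transcribed in nuclear bodies organised by NPAT, a substrate of cyclin E-CDK2. H2A and H2B genes often stand head to head and share the promoter between them. Their promoters are known for TATA boxes, CCAAT boxes bound by NF-Y and, in H2B genes, an octamer element bound by POU2F1 (OCT1). TLE3 does not recognise DNA on its own and is recruited by sequence-specific factors.

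Promoters of 5 members are shown because they span the outcomes in the siNS lists. H2BC26 and H4C4 had high-ranking peaks in both siNS libraries. H2BC11 had a siNS 1 peak over it and a siNS 2 peak over its head-to-head neighbour H2AC11. H2AC18 had no peak, and its promoter is identical to that of H2AC19. H2AC1 had no peak but has the forkhead core motif. Each printed promoter runs 5′ to 3′ on the strand of the gene from 250 bases before to 50 bases after its start (RefSeq, GRCh38.p14). The windows are chr1:228457853-228458152 on the plus strand for H2BC26, chr6:26189063-26189362 on the minus strand for H4C4, chr6:27132746-27133045 on the minus strand for H2BC11, chr1:149842701-149843000 on the minus strand for H2AC18 and chr6:25726513-25726812 on the minus strand for H2AC1. Capitals mark every match on either strand to the TATA box TATAAA, the CCAAT box, the octamer ATTTGCAT, the GC box GGGCGG or the forkhead core TGTTTAC.
H2BC26: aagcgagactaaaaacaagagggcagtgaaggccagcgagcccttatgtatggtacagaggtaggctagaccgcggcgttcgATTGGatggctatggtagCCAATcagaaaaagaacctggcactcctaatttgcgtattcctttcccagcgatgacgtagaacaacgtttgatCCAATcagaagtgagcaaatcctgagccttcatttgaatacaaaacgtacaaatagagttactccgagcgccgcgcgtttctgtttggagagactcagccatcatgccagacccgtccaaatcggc
H4C4: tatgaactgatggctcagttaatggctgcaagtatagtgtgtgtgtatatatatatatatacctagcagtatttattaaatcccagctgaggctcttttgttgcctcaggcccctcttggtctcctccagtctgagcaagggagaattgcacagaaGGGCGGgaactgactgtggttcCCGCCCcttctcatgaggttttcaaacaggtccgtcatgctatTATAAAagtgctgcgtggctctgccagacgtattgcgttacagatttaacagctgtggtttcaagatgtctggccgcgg
H2BC11: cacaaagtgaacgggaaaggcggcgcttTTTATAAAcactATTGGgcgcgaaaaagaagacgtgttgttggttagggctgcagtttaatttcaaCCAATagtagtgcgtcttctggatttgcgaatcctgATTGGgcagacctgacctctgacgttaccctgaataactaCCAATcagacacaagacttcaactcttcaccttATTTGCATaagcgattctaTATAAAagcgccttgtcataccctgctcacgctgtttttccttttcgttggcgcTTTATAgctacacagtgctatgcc
H2AC18: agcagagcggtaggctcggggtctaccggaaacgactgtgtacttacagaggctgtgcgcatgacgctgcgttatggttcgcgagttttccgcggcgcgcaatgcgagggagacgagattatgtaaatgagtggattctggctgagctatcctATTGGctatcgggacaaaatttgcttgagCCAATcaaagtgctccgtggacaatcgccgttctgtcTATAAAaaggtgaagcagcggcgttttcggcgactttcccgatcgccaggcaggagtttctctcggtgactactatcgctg
H2AC1: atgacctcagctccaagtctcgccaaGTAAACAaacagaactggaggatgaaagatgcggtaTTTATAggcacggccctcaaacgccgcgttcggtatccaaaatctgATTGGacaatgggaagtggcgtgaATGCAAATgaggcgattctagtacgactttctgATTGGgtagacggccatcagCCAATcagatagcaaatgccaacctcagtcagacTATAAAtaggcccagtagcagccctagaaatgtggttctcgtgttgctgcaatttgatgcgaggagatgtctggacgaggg
No siFOXA1 peak covered a base of these windows. In siNS 1 and siNS 2, peaks covered 125 and 58 of the 300 bases of H2BC26, 124 and 199 of H4C4, and 24 and 0 of H2BC11. The windows of H2AC18 and H2AC1 held no peak base in any library.

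TLE3 peaks were found at most replication-dependent histone genes in siNS cells and at none of them in siFOXA1 cells. In siFOXA1 1 and siFOXA1 2, 0 and 0 of the 69 members had a peak within 1 kb, against 46 and 49 (66.7% and 71.0%) in siNS 1 and siNS 2. Of all protein-coding genes, 17.3% and 18.6% had a peak in the siFOXA1 libraries and 73% and 69.8% in the siNS libraries. A count of 0 of 69 allows a share of up to 4.35% by the rule of 3 (3 of 69), an approximate bound. It covers counting error only, and neighbouring members share peaks. The share of members averaged 0% ± 0 in siFOXA1 and 68.8% ± 3.07 in siNS (SD, n = 2 each), a difference of -68.8 percentage points. Both siFOXA1 libraries lay below both siNS libraries, and the two-sided exact permutation test gave p = 0.333, the smallest value that 4 libraries allow.

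Relative to all genes, the members' share was 0 and 0 in the siFOXA1 libraries and 0.913 and 1.02 in siNS 1 and siNS 2 (exact permutation p = 0.333, again the smallest possible). With all deposited peaks, the members thus had a siNS peak about as often as genes at large, which did not hold in the lists of equal length given further on. A region with a peak of both siNS libraries, called a siNS consensus region below, lay at 36 of 69 members (52.2%), against 63.5% of all genes. The corresponding siFOXA1 consensus regions lay at 0 members, against 13.1% of all genes. No peak of any library lay at 14 members, and 22.3% of all genes had none. All 69 members lacked a siFOXA1 peak, as did 77.9% of all genes.

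Histone genes are short, and other short genes had a peak less often than genes at large. The part of gene length in this was not tested. Among the 61 members of at most 2 kb, 0 and 0 had a peak in siFOXA1 1 and siFOXA1 2, against 39 and 43 (63.9% and 70.5%) in siNS 1 and siNS 2. Among 1196 other protein-coding genes of at most 2 kb, the shares were 1.76% and 2.01% in the siFOXA1 libraries, against 27.7% and 22.8% in the siNS libraries. With all deposited peaks, the members thus carried siNS peaks at 2.31 and 3.09 times the share of other short genes. Those genes were not matched to the members in expression, which the lists do not give. Counted within 1 kb of the start, for genes with 1 listed start, the ratio to all such genes was 0.983 and 1.17. The short-gene ratio was not computed in lists of equal length. In siFOXA1 cells the count of 0 lies near the low share of the other short genes. Among these 61 members, 30 (49.2%) had a siNS consensus region, against 21.2% of the other short genes. The corresponding siFOXA1 shares were 0 of 61 members and 1.34% of the other short genes.

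**Figure D1:**
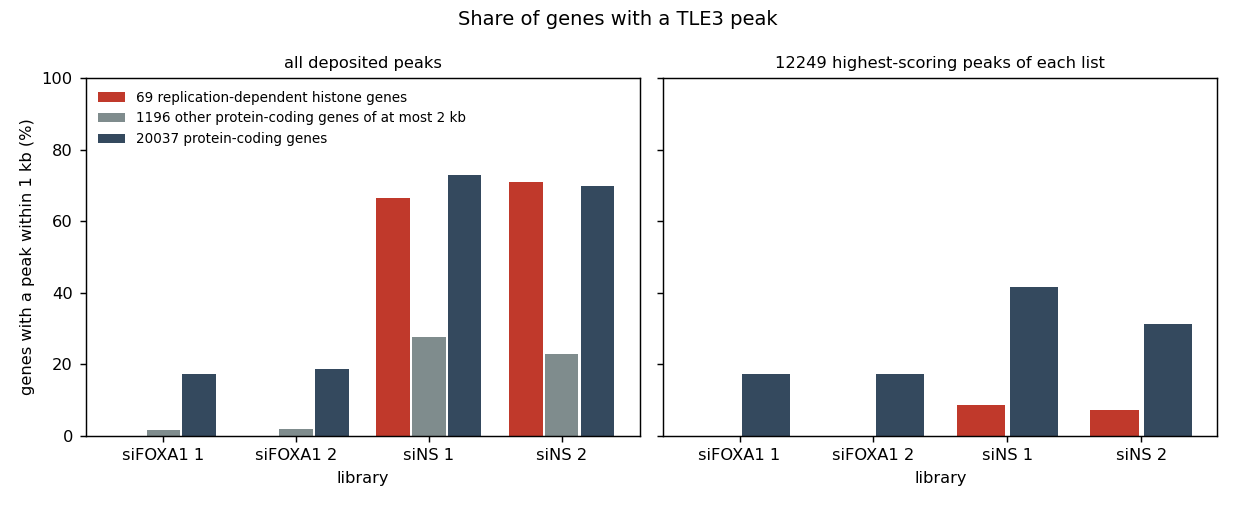
Share of genes (%) with a TLE3 peak within 1 kb in each library, for the 69 histone genes, other short genes and all protein-coding genes. All deposited peaks are shown on the left and the 12249 highest-scoring peaks of each list on the right. The histone genes are at 0 in both siFOXA1 libraries, against 66.7% and 71.0% in the siNS libraries. They are at 8.70% and 7.25% in the siNS libraries once lists have equal length.

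The siNS lists were longer and their peaks at histone genes ranked low, and the part of list length in the difference was not tested beyond the following values. When each list was cut to its 12249 highest-scoring peaks, 0 and 0 members kept a peak in the siFOXA1 libraries, against 6 and 5 (8.70% and 7.25%) in siNS 1 and siNS 2. The shares of all genes were then 17.3% and 17.4% in the siFOXA1 libraries, against 41.7% and 31.1% in the siNS libraries. The members left in both siNS lists were H2AC20, H2AC21, H2AC25, H2BC26 and H4C4, and siNS 1 also kept H2BC18.

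Among the linker histone genes, H1-2, H1-3 and H1-4 had a peak in both siNS libraries, H1-5 in siNS 2 only, and H1-1 and the testis gene H1-6 in no library. H1-4 (chr6:26156329-26157115, plus strand) had no peak in either siFOXA1 library and best scores of 8.16 and 12.03 in siNS 1 and siNS 2. Those scores reached percentiles of 42.3 and 50.6, where the percentile is the percent of peaks of that list that score no higher. H1-2 (chr6:26055740-26056470, minus strand) likewise had no siFOXA1 peak, and its scores of 16.5 and 6.52 stood at percentiles 64.2 and 23.02 in the siNS lists. Best peaks at linker histone genes ranged from percentile 22.4 to 64.2 in siNS 1 and from 6.38 to 50.6 in siNS 2. The score is the authors' own and its definition is not stated, so it is used only to order peaks within a list.

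Of the 17 H2A genes, 12 had a peak in both siNS libraries, 2 (H2AC14 and H2AC15) in siNS 2 alone and 3 (H2AC1, H2AC18 and H2AC19) in none. H2AC25 (chr1:228457364-228457873, minus strand) lies outside the large clusters and had no peak in either siFOXA1 library. Its best peak scored 69.1 in siNS 1 and 51.6 in siNS 2, at percentiles 92.8 and 89.6. These were the highest values of any member in each list, shared with its neighbour H2BC26. H2AC20 (chr1:149886918-149887411, plus strand) and H2AC21 (chr1:149887469-149887965, minus strand) stand next to each other on 1q21 and shared a best peak. It lay in chr1:149888307-149888764, beyond both genes, and had no siFOXA1 counterpart, against scores of 41.2 and 38.1 in siNS 1 and siNS 2 (percentiles 84.9 and 84.3).

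Of the 18 H2B genes, 12 had a peak in both siNS libraries, 4 in 1 of them (H2BC3, H2BC6, H2BC14 and H2BC15) and 2 in none (H2BC1 and H2BC9). H2BC26 (chr1:228458103-228458558, plus strand) shared its 2 regions with H2AC25. The stronger region, chr1:228458122-228459726, began 19 bases into H2BC26 and ran past its end. H2BC18 (chr1:149782689-149812370, minus strand) had no siFOXA1 peak and best scores of 45.8 and 22.5 in siNS 1 and siNS 2, at percentiles 87.0 and 71.9. Its annotated span is long for a histone gene, and that peak, in chr1:149792521-149793747, lay inside the span 18.6 kb from the start. The 2 other protein-coding genes within the 1q21 span, FCGR1A and LOC124904411, had best siNS peaks at the same percentiles, 87.0 and 71.9. The high rank is thus not particular to the histone gene.

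Of the 13 H3 genes, 6 had a peak in both siNS libraries, 4 in 1 (H3C2, H3C3, H3C6 and H3C8) and 3 in none (H3C10, H3C14 and H3C15). H3C1 (chr6:26020451-26020958, plus strand) had no siFOXA1 peak, and its best siNS peaks scored 21.7 and 13.03, at percentiles 70.7 and 53.6. These lay in different places. The siNS 1 peak, chr6:26021415-26021995, lay beyond H3C1 and over H4C1, and the siNS 2 peak, chr6:26020492-26020977, over H3C1. The siNS 1 peak over H3C1 itself scored 9.63, at percentile 48.4. H3C13 (chr1:149813225-149813693, minus strand) had no siFOXA1 peak either. Its siNS peaks scored 20.5 and 13.3, at percentiles 69.3 and 54.2, and the merged region covered the whole gene.

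Of the 15 H4 genes, 7 had a peak in both siNS libraries, 4 in 1 (H4C2, H4C3, H4C8 and H4C12) and 4 in none (H4C6, H4C7, H4C14 and H4C15). H4C4 (chr6:26188710-26189112, minus strand) had no peak in either siFOXA1 library, against scores of 35.4 and 27.4 in siNS 1 and siNS 2. Percentiles of 82.0 and 77.1 made it the highest-ranking member of the 6p22 cluster in both siNS lists. H4C1 (chr6:26021649-26022050, minus strand) lies next to H3C1 and shared both of its regions and its best scores. H4C16 (chr12:14770720-14771131, minus strand), the single member on chromosome 12, had no siFOXA1 peak and siNS scores of 17.1 and 11.7, at percentiles 64.9 and 49.3.

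**Figure D2:**
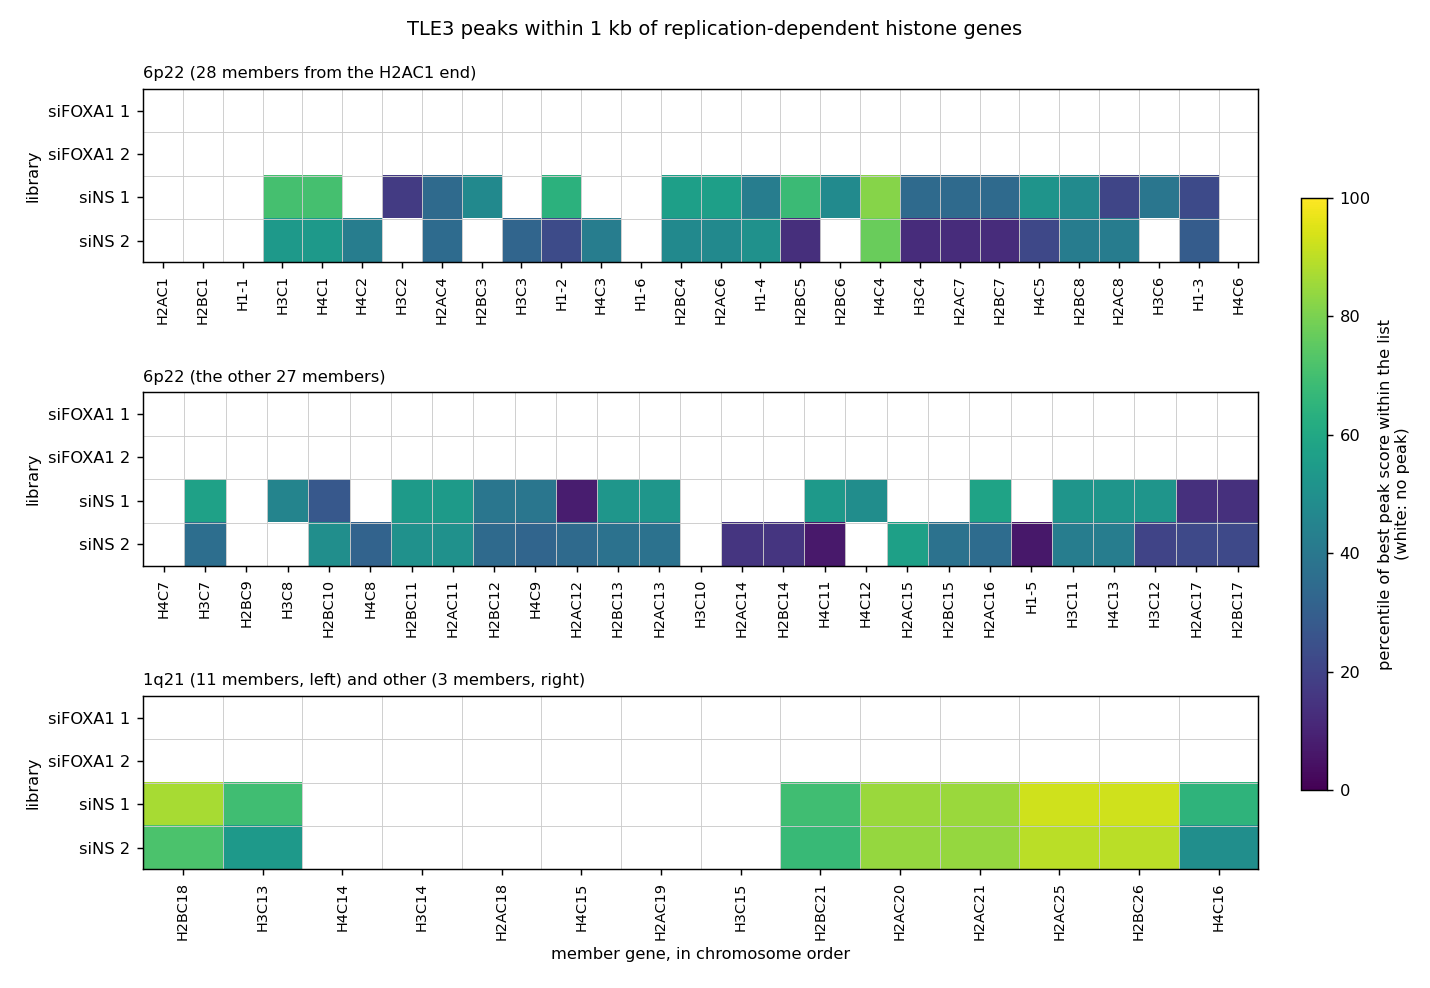
Best TLE3 peak within 1 kb of each of the 69 histone genes in each library, coloured by the percentile of its score in that list, with genes in chromosome order and white for no peak. The siFOXA1 rows are empty, and in the siNS rows 40 genes have a peak in both libraries, 15 in 1 library and 14 in none. The brightest cells are at H2AC25 and H2BC26.

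Every class therefore had members with a siNS consensus region: 3 of 6 H1, 9 of 17 H2A, 11 of 18 H2B, 6 of 13 H3 and 7 of 15 H4 genes. A member could have a peak in both siNS libraries without a consensus region, because the peaks lay apart. This was so at H2AC4, H2AC11, H2AC12 and H2BC11. At H2BC11 the siNS 1 peak lay in chr6:27132294-27132769 and the siNS 2 peak in chr6:27133060-27133377, over H2BC11 and H2AC11, with most of the H2BC11 promoter window printed above between them.

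The siNS peaks were spread along 6p22, whose 55 members extend over 2.17 Mb. There 0 and 0 members had a peak in the siFOXA1 libraries, against 38 and 41 in siNS 1 and siNS 2, and 28 (50.9%) had a siNS consensus region. A split at gaps of more than 500 kb divides the cluster into groups of 34, 5 and 16 members. In the group of 34, 23 and 22 had a peak in siNS 1 and siNS 2. In the group of 5 all had a peak in each siNS library. In the group of 16, 10 and 14 had one, and H3C10 was its one member without a peak. On 1q21, 0 and 0 of 11 members had a peak in the siFOXA1 libraries, against the same 5 in each siNS library. The other 6 of 1q21, H4C14, H3C14, H2AC18, H4C15, H2AC19 and H3C15, are neighbours and had no peak in any list.

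The 6 peakless genes of 1q21 form pairs with the same promoter sequence. Among the 60 members with 1 start listed in the RefSeq promoter table, the 300-base promoters of H4C14 and H4C15, of H3C14 and H3C15, and of H2AC18 and H2AC19 were identical. Those of H4C11 and H4C12 on 6p22 were 98.3% identical, and both of these genes had a siNS peak. Of the 8 members with so close a promoter copy, 2 had a peak in a siNS library. Of the 52 whose closest promoter copy was 34% to 84% identical, 44 had one. How reads that match several places were treated is not given in the sources used here, and its part in these gaps was not tested.

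Genes between the histone genes also had TLE3 peaks. Of 19 other protein-coding genes within the 6p22 span, 1 and 0 had a peak in siFOXA1 1 and siFOXA1 2, against 11 and 11 in siNS 1 and siNS 2. The 6p22 histone genes with a peak had median percentiles of 48.4 and 35.4 in siNS 1 and siNS 2, against 66.7 and 64.1 for these neighbours. Each gene counted by its best peak, and gene length was not taken into account. The whole span held 8 and 6 peaks in the siFOXA1 lists, against 89 and 93 in the siNS lists. The siFOXA1 peak closest to a member was 5145 bp from H2BC9 (chr6:26251614-26252075) in siFOXA1 1 and 10418 bp from H4C8 (chr6:26285126-26285534) in siFOXA1 2. Measured over all members, the nearest siFOXA1 peak was a median of 101.7 kb away in siFOXA1 1 and 111.7 kb away in siFOXA1 2. The strongest siFOXA1 peaks of the span scored 104 and 115, at percentiles 99.1 and 99.0. They lay 5812 and 5787 bp from PRSS16, a thymic serine protease gene, at a place with a peak in both siNS lists.

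Of the 64 merged regions at members, 30 held a peak of both siNS libraries, 15 of siNS 1 alone and 19 of siNS 2 alone. The share found in both libraries, 46.9%, was close to the 44.8% among all 41732 regions with a siNS peak within 1 kb of a protein-coding gene. Since genes stand close together, 30 of the 64 regions lay within reach of more than 1 member.

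None of the 30 siNS consensus regions at members overlapped a siFOXA1 peak, a share of 0% with an exact 95% binomial interval of 0% to 11.6%, counting error only. Of 10655 siNS consensus regions within 1 kb of either end of a protein-coding gene, 6.28% did so (5.83% to 6.76%). Of the 18716 siNS consensus regions within 1 kb of a protein-coding gene, the range used for the members, 13.7% did so, and of all 24967 siNS consensus regions 17.0%. Regions at neighbouring members are not independent and were weaker than most, so the interval cannot decide between these shares. No test was made of these differences. The share of gene-end regions that overlapped a siFOXA1 peak was higher for strong regions. In 10 equal bins of siNS score rank it was 0.424% in the weakest and 40.8% in the strongest. The weakest bin held 10 member regions and the strongest 0. Weighted to the strength of the member regions, the gene-end share was 1.47%.

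In the siNS lists the peaks at histone genes ranked lower and were narrower than peaks at gene ends in general. The 49 and 50 peaks at members in siNS 1 and siNS 2 had median percentiles of 48.9 and 35.1, against 69.03 and 56.7 for the 14315 and 13338 peaks at gene ends. Over both libraries the medians averaged 42.0 ± 9.76 at members and 62.9 ± 8.71 at gene ends (SD, n = 2 each), and in each library the members' was lower. Of the member peaks, 1 and 0 were among the 10% of peaks with the highest scores in their list. Their median width was 404 and 407.5 bp, against 766 and 644 bp at gene ends. Within the members, median percentiles in siNS 1 and siNS 2 were 43.7 and 32.5 on 6p22, 69.3 and 60.7 on 1q21, and 75.6 and 68.2 at the other 3 genes. With no siFOXA1 peak at a member, no score could be compared between siFOXA1 and siNS cells.

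**Figure D3:**
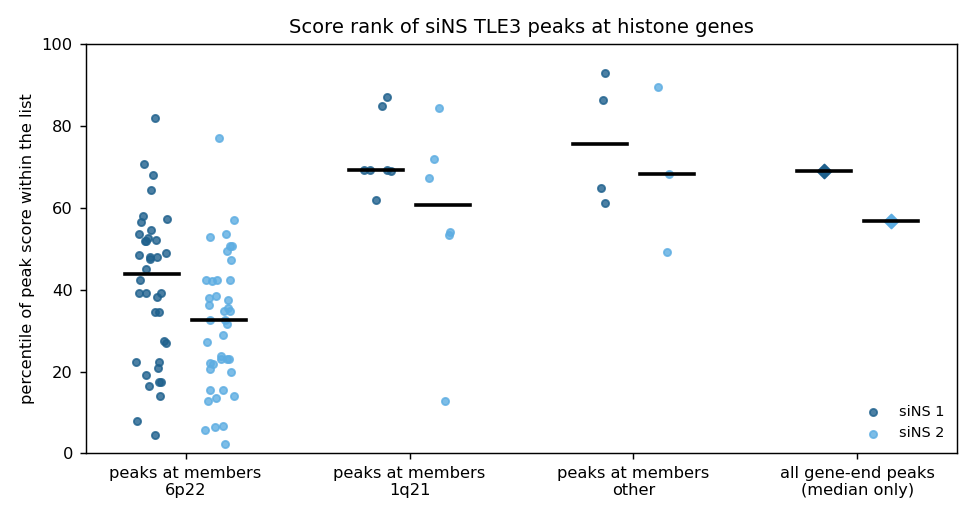
Percentile of the score within its list for each siNS peak within 1 kb of a histone gene, by cluster, with horizontal lines at medians and diamonds at the medians of all gene-end peaks. The 6p22 peaks have medians of 43.7 and 32.5, below the gene-end medians of 69.03 and 56.7. The siFOXA1 lists have no peak to plot.

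The siNS peaks lay more often over the histone genes themselves than over their starts. Start and strand came from the RefSeq promoter table for 60 members and for 11797 protein-coding genes with 1 listed start. A peak covered the start of 0 and 0 members in the siFOXA1 libraries and of 13 and 13 (21.7% each) in the siNS libraries. Among all 11797 genes those shares were 0.559% and 0.475% in siFOXA1 cells, against 53.1% and 45.1% in siNS cells. In siNS cells the gap was smaller with a wider window. Within 250 bp of the start, 50% and 53.3% of members had a siNS peak, against 57.7% and 52.2% of all genes. Within 1000 bp the shares were 60% and 65% for members, against 61% and 55.7% for all genes. In siFOXA1 1 and siFOXA1 2, no member had a peak in either window, against 1.03% and 0.941% of all genes within 250 bp and 1.78% and 1.9% within 1000 bp.

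Across positions in steps of 50 bp, coverage of the members in siNS 1 and siNS 2 was highest downstream of the start, at 48.3% (300 bp) and 46.7% (150 bp). It was lowest near the start at 150 bp upstream, where 1.67% and 5% of members had a peak. Farther upstream it reached 25% and 23.3%, at 500 and 450 bp before the start. The average over all genes had no such trough and was highest within 50 bp of the start. Over members of at most 2 kb, 38.4% and 41.1% of the bases of the genes lay in a siNS peak, against 10.95% and 12.6% of the bases within 1 kb outside them. Over other short genes, 12.4% and 8.69% of gene bases lay in a siNS peak, against 7.84% and 6.05% of the bases around them.

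**Figure D4:**
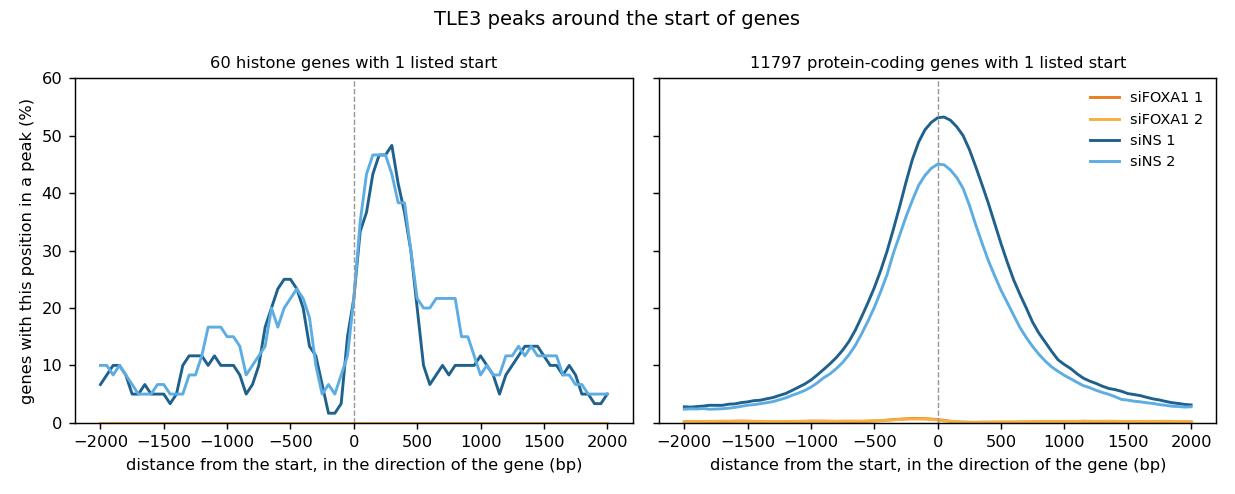
Percent of genes with a TLE3 peak at each distance from the start, in the direction of the gene, for 60 histone genes on the left and 11797 protein-coding genes on the right, each with 1 listed start. In the siNS libraries the histone genes have their highest coverage 150 to 300 bp after the start and a trough 150 bp before it. Their siFOXA1 lines stay at 0.

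The same arrangement was seen in head-to-head pairs, which are part of the members above and so not a second observation. A peak over 1 gene of a pair can lie upstream of the other, which adds to the upstream coverage given above. There were 12 pairs of members, 24 genes in all, that point away from each other with starts 194 to 979 bp apart (median 238 bp). No pair had a siFOXA1 peak, and 10 had a siNS peak within reach of both genes. At 8 of these pairs both siNS libraries had such a peak, and at the other 2, H2AC14/H2BC14 and H2AC15/H2BC15, siNS 2 alone had one. The stretch between the starts was overlapped by a peak in 2 pairs: H2AC25/H2BC26 in both siNS libraries and H2BC13/H2AC13 in siNS 1. The pairs without a shared peak were H2AC1/H2BC1, genes used mainly in testis, and H3C7/H2BC9.

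The promoters were searched on both strands for 6 motifs. Most head-to-head pairs have starts close enough (median 238 bp) for their windows to overlap, so 1 site can count for both genes. Counts of members are therefore not counts of separate sites. TATAAA was present in 39 of 60 members (65%), against 10.5% of the 11797 promoters of the same length, and CCAAT in 50 (83.3%), against 37.2%. Every H1, H2A, H2B and H3 promoter searched had CCAAT, against 3 of 13 H4 promoters. The octamer ATTTGCAT was in 24 members (40%), 11 of 16 H2A and 13 of 16 H2B genes and no H1, H3 or H4 gene, against 1.75% of all promoters. GGGCGG was in 18 members (30%), against 58.7%, and 8 of the 18 were H4 genes. TTTGGCGC, a spelling of the E2F site, was in 0 members and 0.915% of all promoters. TATAAA and its reverse complement overlap in the H2BC11 window.

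The motifs other than TGTTTAC and TTTGGCGC occurred in members with and without a siNS consensus region. TATAAA was found in 20 of 30 members with such a region, against 19 of the 30 others, CCAAT in 26 against 24, ATTTGCAT in 14 against 10, and GGGCGG in 7 against 11. TGTTTAC was in the promoters of H2AC1 and H2BC1 alone, 3.33% of members against 2.56% of all promoters, and neither gene had a peak in any library. Those genes form a head-to-head pair with starts 215 bp apart, and the site in the H2AC1 window also lies in the H2BC1 window. These are matches of letters in a 300-base window, and no test was made on them.

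Histone genes that the symbol rule leaves out are given beside the members, without a test. The 25 genes of this list were chosen as replication-independent. Of these, 2 and 1 had a peak in siFOXA1 1 and siFOXA1 2, against 12 and 11 in siNS 1 and siNS 2. Of all protein-coding genes, 17.3% and 18.6% had a siFOXA1 peak, against 73% and 69.8% with a siNS peak. A siNS consensus region lay at 10 (40%), where 63.5% of all genes had one, and gene length was not taken into account. Their peaks are described by percentile within the list. Lists differed in length, so these ranks show no change between siFOXA1 and siNS. H3-3A, which encodes the replacement histone H3.3, had a peak at percentile 67.4 in siFOXA1 1, none in siFOXA1 2, and peaks at percentiles 99.9 and 99.2 in siNS 1 and siNS 2. MACROH2A1, a macroH2A gene, had peaks in all 4 libraries, at percentiles 30.1 and 22.6 in the siFOXA1 lists and 82.3 and 87.4 in the siNS lists. H1-10 and H3-3B, another H3.3 gene, had peaks in the siNS lists only, at percentiles 95.9 and 88.0 for H1-10 and 92.6 and 90.4 for H3-3B. The replication-dependent members with a siNS peak had median percentiles of 52.2 and 37.8 in siNS 1 and siNS 2, against 78.0 and 71.6 for the genes of this list with one.

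Of 41 genes that transcribe, process or deposit histones, 4 and 5 had a peak in the siFOXA1 libraries, against 40 and 38 in the siNS libraries. A siNS consensus region lay at 38 (92.7%), where 63.5% of all genes had one, and gene length was not taken into account. SLBP, the stem-loop binding protein gene, stood at percentiles 92.9 and 92.5 of the siFOXA1 lists and 92.5 and 91.5 of the siNS lists. TENT4A, a terminal nucleotidyltransferase gene, stood at 85.7 and 90.5 in the siFOXA1 lists and at 98.2 and 96.8 in the siNS lists. UPF1, an RNA helicase gene of histone mRNA decay, stood at 64.6 and 60.9 in the siFOXA1 lists and at 90.7 and 86.4 in the siNS lists. POU2F1, the octamer factor gene, stood at percentiles 47.3 and 72.6 in siFOXA1 1 and siFOXA1 2 and at 90.02 and 68.9 in siNS 1 and siNS 2. The S phase activator gene E2F2 had a peak at percentile 23.4 in siFOXA1 2, none in siFOXA1 1, and peaks at 85.0 and 81.4 in the siNS lists. The top 3 of the list by siNS percentile were TENT4A, E2F1 (92.7 and 91.7) and SYMPK (96.1 and 88.0), a scaffold of the histone cleavage complex. E2F1 and SYMPK had peaks in siNS cells only. NPAT had no siFOXA1 peak and stood at percentiles 72.7 and 44.6 of the siNS lists. LSM10 of the U7 particle had no peak in any library.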

How the data were processed

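TLE3 ChIP-seq peak lists of 4 libraries were used, 1 list per library. The input libraries, labelled MDA-MB-454, were not analysed here. The submitters' processing notes list hg38, MACS2, SAMtools, BWA 0.7.5a and Trim Galore; for thresholds and mapping filters the sources used here give nothing. Each deposited list has 5 columns, and the score in the last is the authors' own. It was used to rank peaks within a list, and no read depth is given. Replicate numbers follow the titles; the deposited siFOXA1 2 list carries another number in its name. Mitochondrial peaks (4, 9, 4 and 3 of siFOXA1 1, siFOXA1 2, siNS 1 and siNS 2) were left out.

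Gene positions came from a RefSeq table of GRCh38.p14, with 1-based coordinates. Of the 69 members, 64 were in the promoter table, and the 60 with 1 listed start were used for starts and motifs. Libraries were compared by a two-sided exact permutation test over 6 relabelings. Members and lists were chosen with earlier results of these data known. The short-gene, start-site, head-to-head, promoter-copy and strength-weighted comparisons and the subgroups of 6p22 were added after seeing the data. Named with values were, per class, the 2 members with the highest mean siNS percentile (3 where tied), members outside the clusters and, in other lists, genes with a siFOXA1 peak and the top 3; NPAT, LSM10, H2BC11 and the members of the printed promoters were chosen after their values were seen. From the comparison lists, ARS2 (a synonym of SRRT) and COASY (entered in error) were left out. Overlaps were checked against bedtools 2.31.1 on simulated data. Python 3.11.15, numpy 2.4.6, scipy 1.17.1 and matplotlib 3.10.9 were used.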

Additional observations from a re-analysis of the deposited data

How the results depend on the processing

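Of the 69 alternative values, 12 were over 1.5 times from the main value. None changed the direction of a difference between siFOXA1 and siNS. With no siFOXA1 peak at a member in any setting, that direction could not change, and the other results have no direction. For the same reason, leaving out a siFOXA1 library changed no value, and counts of siFOXA1 consensus regions and of overlaps with siFOXA1 peaks stayed at 0. Those values say nothing about how stable the results are. With the lower-scoring 50% of each list left out, 10 members had a siNS consensus region, 26 merged regions remained at members and the median percentile of member peaks, re-ranked within the shortened lists, was 21.9. The members' share then differed by -29.0 percentage points between siFOXA1 and siNS, and the ratio to all genes by -0.504. With lists of 12249 peaks, these differences were -7.97 points and -0.221, 5 members had a siNS consensus region and 5 merged regions remained. Set against other genes of at most 2 kb, the ratio differed by -2.70. The share of member starts covered by a siNS peak averaged 11.7% with the lower-scoring 50% left out, 2.5% in equal lists and 20.3% when the first listed start was used. Leaving out 1 library at a time gave differences in the members' share of -71.0 to -66.7 points, differences in the ratio to all genes of -1.02 to -0.913, 36 consensus genes without either siFOXA1 library, 49 to 64 regions and percentiles of 35.1 to 48.9. With 1 siNS library there is no siNS consensus region, so those counts could not be made. With the replicate number as a block the differences were the same, -68.8 points and -0.966, with an exact permutation p = 0.5, the smallest that 2 pairs allow. Both siFOXA1 libraries were at 0, so whether the numbers pair the libraries could not be checked. The comparison of score rank between siFOXA1 and siNS could not be made, since no siFOXA1 peak lay at a member. Unknown depth and list length limit every count of peaks, and 2 libraries a group cannot reach a p below 0.333.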

Other observations

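Histone pseudogenes were chosen after their values were seen. Of 15, 0 and 0 had a peak within 1 kb in the siFOXA1 libraries, against 6 and 6 in the siNS libraries, the same 6 in both: H2AC5P, H2AC9P, H2AC10P, H3C9P, H4C10P and H2BC16P. At 5 of these 6 every peak also lay within 1 kb of a member, so those peaks are already counted above, and 1, H3C9P, had peaks of its own. Of all protein-coding genes 73% and 69.8% had a siNS peak, and of short ones other than the members 27.7% and 22.8%. The 6p22 span also holds 98 tRNA genes, likewise chosen after their values were seen. Of these, 4.08% and 5.10% had a peak in siFOXA1 1 and siFOXA1 2, against 18.4% and 21.4% in siNS 1 and siNS 2. Of 345 tRNA genes outside the span, 1.45% and 0.580% had a peak in the siFOXA1 libraries, against 39.4% and 38.8% in the siNS libraries. The tRNA genes of the span with a siFOXA1 peak were 4 in siFOXA1 1 and 5 in siFOXA1 2. The count of 0 of 69 members allows up to 4.35% by the approximate rule of 3, counting error only, which is close to these shares. Such small counts show no difference between the tRNA genes and the histone genes.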
